A study of Mus musculus with 4 samples.

Results

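Sp6 occupancy was described at the genes for axon guidance ligands and receptors. These are the semaphorins, plexins and neuropilins, the ephrins and Eph receptors, Slit and Robo, and the netrins with their receptors DCC, neogenin and UNC5. Genes were taken by family name from the deposited gene tables, with Sema5a and Plxna4 left out, and 34 of the 5566 gene names in the tables belonged to them. The same families hold 66 protein-coding genes in the RefSeq gene table, so 32 had no interval in the tables used here. The 34 are 51.5% of the family, where 22.1% of all protein-coding genes had an interval in either tissue. Chromatin came from dental epithelium and from dental mesenchyme of 30 molars, taken from C57BL/6 mice at postnatal day 1, and the labels name no mutation or treatment in any group. The tissues were crosslinked with paraformaldehyde and sheared by sonication. For each tissue 1 library was precipitated with an in-house Sp6 antibody and 1 input library had no antibody, which gives 4 libraries and no replicates. Sp6, or epiprofin, belongs to the SP/KLF transcription factors, whose zinc fingers bind GC-rich boxes, and tooth development depends on it.

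Axon guidance molecules steer growing nerve fibres, and they also position epithelial, mesenchymal and vascular cells. Secreted class 3 semaphorins bind neuropilins, which signal through plexins, and transmembrane semaphorins bind plexins directly. Ephrins are membrane-bound ligands for Eph receptor tyrosine kinases, Slits bind Robo receptors, and netrins attract through DCC and repel through UNC5 receptors. In teeth, Sema3a restrains the entry and timing of the nerve supply of the dental pulp.

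Each interval is described by its deposited peak value, read here as the density of fragments in the highest bin. Epithelium had 3811 Sp6 intervals, of which 2381 are paired with genes in the tables, and mesenchyme had 11436 and 7211. Only these annotated intervals carry peak values, with medians of 27 in epithelium and 34 in mesenchyme. Read totals are unknown and no scaling between libraries is stated, so ranks were taken within each tissue and ratios between tissues describe deposited values alone. Distances run from the authors' gene start to the peak centre, and coordinates are those of build mm9 unless another is named. Interval positions do not report RNA, so the tissue labels could not be checked against marker genes. With 1 library per group no test between tissues was possible. Intervals in brackets are Wilson 95% intervals and cover counting error only.

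Guidance genes carried Sp6 intervals in both tissues. Of the 20 listed in epithelium, 19 were also listed in mesenchyme (95%, 76.4 to 99.1%), close to the 92.4% of all epithelium genes. An interval was listed for 20 of the 66 genes in epithelium (30.3%, 20.6 to 42.2%) and for 33 in mesenchyme (50%, 38.3 to 61.7%). Over all 21631 protein-coding genes on the same chromosomes, 8.94% had an interval in epithelium and 21.4% in mesenchyme. Both tissues listed 19 of the 66 guidance genes (28.8%, 19.3 to 40.6%), against 8.26% of all genes. Of the 66, a single gene, Epha8, was listed in epithelium only, and 14 in mesenchyme only, where all genes had 0.68% and 13.2%. The guidance genes held 33 intervals in epithelium and 76 in mesenchyme. With only the strongest mesenchyme intervals kept, equal in number to those of epithelium, there were 20 genes and 33 intervals in epithelium and 19 genes and 32 intervals in mesenchyme. Receptors were listed in 12 of 34 cases in epithelium and 18 in mesenchyme, and ligands in 8 of 32 and 15. Receptor genes were longer, with a median of 92.2 kb against 34.4 kb for ligands. At the shares of all genes in their length classes (below), 6.5 and 13.0 receptors and 5.3 and 10.7 ligands would be listed.

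**Figure D1:**
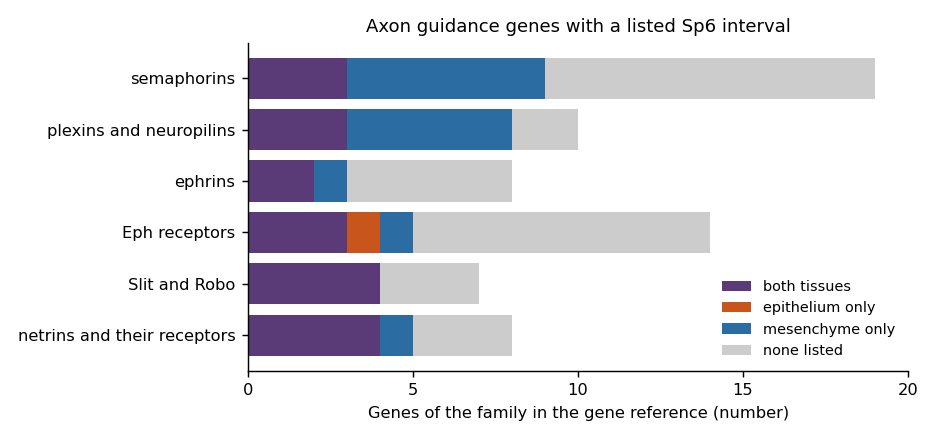
Number of genes of each guidance family in the gene reference (horizontal axis), split by whether a Sp6 interval was listed in both tissues, in epithelium only, in mesenchyme only or in neither. The 4 listed Slit and Robo genes were all listed in both tissues, and 6 of the 9 listed semaphorins in mesenchyme only.

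Many guidance genes are long, and long genes held more intervals in the whole series. The family had a median length of 53.6 kb, against 17.3 kb for all genes, and its listed and unlisted members had medians of 136 kb and 18 kb. Among genes over 200 kb, an interval in epithelium was listed for 8 of 16 guidance genes (50%, 28.0 to 72.0%) and for 37.8% of all genes. In mesenchyme the same class had 12 of 16 (75%, 50.5 to 89.8%), against 64.6% of all genes. Between 20 and 50 kb the separation was wider, with 4 of 14 guidance genes in epithelium (28.6%, 11.7 to 54.6%) and 7.86% of all genes, and 8 of 14 (57.1%, 32.6 to 78.6%) and 21.2% in mesenchyme. Between 50 and 100 kb there were only 2 guidance genes, 1 listed in epithelium and 2 in mesenchyme. Between 100 and 200 kb, 6 of 15 were listed in epithelium (40%, 19.8 to 64.3%), against 24.4% of all genes, and 9 of 15 in mesenchyme (60%, 35.7 to 80.2%), against 49.7%. Below 20 kb, 1 of 19 guidance genes was listed in epithelium and 2 in mesenchyme, that is 5.26% and 10.5%, beside 3.74% and 11.5% of all genes. If each guidance gene were listed as often as all genes of its length class, 11.8 would be listed in epithelium and 23.6 in mesenchyme, where 20 and 33 were found. No test was made of this difference. Length was matched only in part, because the class over 200 kb has no upper limit and includes guidance genes as long as Robo2 (1555 kb). Lengths are also RefSeq spans on GRCm38.p6, which may differ from the gene models the authors used on mm9. Per megabase of gene body the 66 guidance genes held 2.42 intervals in epithelium and 5.15 in mesenchyme, and all genes held 1.65 and 4.92.

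**Figure D2:**
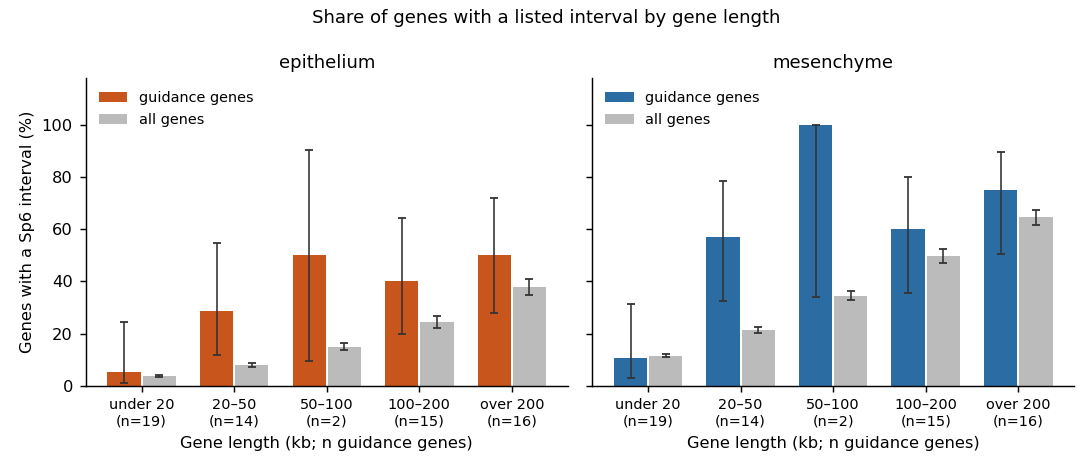
Percent of genes with a listed Sp6 interval (vertical axis) by gene length class, for guidance genes (coloured) and all protein-coding genes (grey), in epithelium (left) and mesenchyme (right). Bars show the share and lines its Wilson 95% interval, and the intervals of the guidance genes are wide because each class holds 2 to 19 of them.

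In mesenchyme the strongest guidance intervals lay in the Slit and Robo genes, which encode secreted repellents and their receptors. In epithelium the highest value, 99, was that of Robo2, followed by Efna5 (62) and Slit3 (61). Each tissue listed 4 of the 7 Slit and Robo genes, where their length classes would give 1.8 in epithelium and 3.3 in mesenchyme. Robo2 had peak values of 99 and 39 in epithelium, and of 198, 50, 50 and 34 in mesenchyme. Its strongest interval lay inside the gene 105 kb from the start (chr16:74305282-74306228 in epithelium), and ranked 40th of 2381 in epithelium and 57th of 7211 in mesenchyme. Both Robo2 epithelium intervals had a mesenchyme counterpart. Robo1 had 5 intervals in epithelium, with peak values of 23, 32, 41, 46 and 31, and 8 in mesenchyme, with 22, 35, 87, 183, 27, 100, 39 and 55, each in order along the chromosome. All 5 epithelium intervals of Robo1 overlapped mesenchyme intervals, and 3 of them lay close together between 29.9 and 35.3 kb from the start. The gaps within this run were 3.39 and 0.51 kb in epithelium and 3.12 and 0.26 kb in mesenchyme. The strongest Robo1 interval in mesenchyme (183, chr16:72698212-72698978, rank 79) belonged to the run, while in epithelium the highest value (46) lay 113 kb from the start.

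Among the ligands, Slit3 had peak values of 61 and 27 in epithelium and of 198, 48, 36 and 26 in mesenchyme. The highest lay 451 kb inside the gene in both tissues (chr11:35385478-35386101 in epithelium), with peak centres at the same position, and ranked 193rd in epithelium and 57th in mesenchyme, level with Robo2. Slit2 had 24 in epithelium, and 65 and 21 in mesenchyme, and the shared interval lay 189 kb from the start. Both Slit2 and Slit3 thus had their intervals deep inside the gene, over 100 kb from the start. Slit1, Robo3 and Robo4 had none listed.

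**Figure D3:**
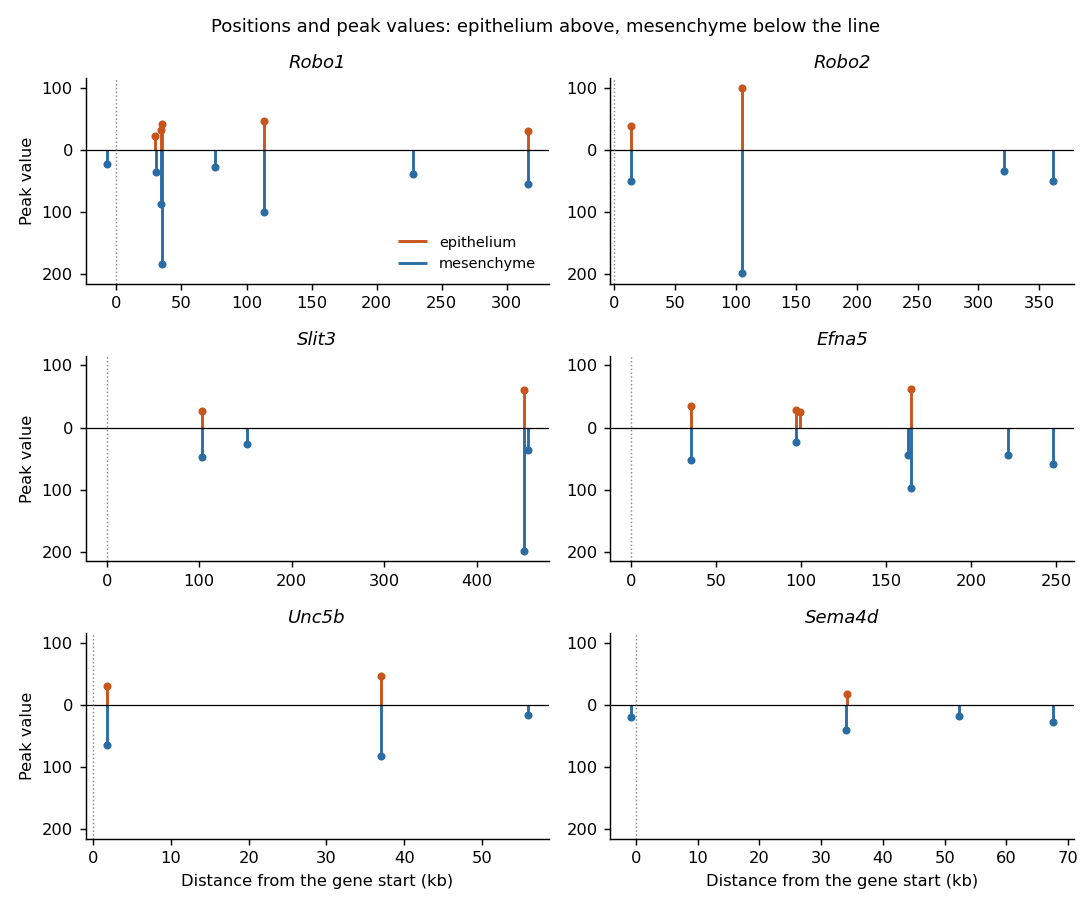
Peak value of each Sp6 interval (vertical axis, epithelium above and mesenchyme below the line) against its distance from the gene start in kb, for 6 guidance genes; the dotted line marks the start. In 5 of the genes every epithelium interval has a mesenchyme partner, and in Efna5 the interval with a value of 25 has none.

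Of the 8 ephrins, 2 were listed in epithelium and 3 in mesenchyme, where their length classes would give 0.7 and 1.5. Efna5 and Efnb2 were listed in both tissues. Efna5 encodes ephrin-A5, a repellent for axons that bear EphA receptors, and had 4 intervals in epithelium, with peak values of 62, 25, 28 and 35. In mesenchyme it had 6, with 58, 44, 98, 44, 23 and 53. The strongest lay 164 kb inside the gene in both tissues (chr17:63066031-63066552 in epithelium) and stood at the 92.2nd percentile of epithelium and the 94.1st of mesenchyme. An interval at 97.1 kb had 28 in epithelium and 23 in mesenchyme, and was the only pair among the guidance genes with a higher deposited value in epithelium. Next to it, 1.78 kb away, lay an epithelium interval with a value of 25 and no mesenchyme counterpart. Efnb2, which encodes ephrin-B2, a ligand of EphB receptors and a marker of arteries, had 31 and 17 in epithelium and 49, 37, 41 and 20 in mesenchyme. The pair with 31 and 49 lay downstream of the gene, 46.7 kb from the start, and the weakest mesenchyme interval lay upstream of the start. Efna3 had 1 mesenchyme interval, downstream of the gene, with a value of 25.

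Of the 14 Eph receptor genes, 4 were listed in each tissue, where the shares of their length classes would give 2.7 in epithelium and 5.3 in mesenchyme. Ephb2 had 31 in epithelium and 90 in mesenchyme at one place, 104 kb inside the gene (chr4:136287360-136287988 in epithelium). Epha4, whose product binds ephrins of both the A and B classes, had 30 in epithelium and 84, 70 and 33 in mesenchyme. The values of 30 and 84 belonged to a shared interval 123 kb from the start, and the other two lay farther inside the gene, in mesenchyme alone. Epha2, an epithelial Eph receptor, had 23 in epithelium and 58 in mesenchyme at 26 kb, and a further epithelium interval of 15 downstream of the gene with no counterpart (chr4:140894072-140894453). Ephb1 had mesenchyme intervals alone, with 42, 33 and 30, between 124 and 229 kb from the start. Epha8 had 1 epithelium interval, with a value of 15, 12.9 kb inside the gene (chr4:136499687-136500098). Both values of 15 stood at the 3.0th percentile within epithelium, near the lowest that were listed.

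All 4 UNC5 receptor genes, which mediate repulsion by netrins, had an interval in mesenchyme, and 3 of them in epithelium. Their median length was 219 kb. The netrins and their receptors together had 4 of 8 genes listed in epithelium and 5 in mesenchyme, where their length classes would give 2.2 and 4.1. Unc5b had 47 and 31 in epithelium and 82, 64 and 16 in mesenchyme. Its shared intervals lay 37.0 kb inside the gene (chr10:60256947-60257784 in epithelium) and about 1.8 kb from the start (chr10:60292277-60292901). Unc5c had 40 in epithelium and 64 in mesenchyme at 17.1 kb, in an interval also listed for LOC100039923. Unc5d had 26 and 16 in epithelium and 68, 40 and 37 in mesenchyme. Its epithelium interval of 16, which lay 389 kb inside the gene (chr8:29940965-29941464), had no counterpart. Unc5a had 61 in mesenchyme alone, 32 kb inside the gene. Among the netrins counted here, Ntn4, a basement membrane netrin, had 27 in epithelium and 31 in mesenchyme at 98.1 kb, and a second mesenchyme interval of 28 at 2.26 kb. Ntn1, Dcc and Neo1 had none listed, although Dcc is 1098 kb long and Ntn1 and Neo1 are 177 and 162 kb long.

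Of the 19 semaphorin genes, 3 were listed in epithelium and 9 in mesenchyme. With equal numbers of intervals, 3 were listed in epithelium and 3 in mesenchyme. Their median length was 29.0 kb. With all intervals kept, the shares of their length classes would give 3.1 in epithelium and 6.3 in mesenchyme. Sema3e, a class 3 semaphorin that signals through plexin-D1, had 17 in epithelium and 74 and 45 in mesenchyme. The weaker mesenchyme interval, 43.5 kb from the start, was the shared one and is also listed for LOC100042957. The stronger lay 65.0 kb from the start (chr5:14089937-14090768). Sema4d, the ligand of plexin-B1, had 18 in epithelium and 40, 27, 20 and 18 in mesenchyme, with the shared interval 34.2 kb inside the gene. Sema3b had 27 in epithelium and 37 in mesenchyme in an interval downstream of the gene, 14.0 kb from its start, which is also listed for Ifrd2 and Hyal3. In mesenchyme alone, Sema6a had 53 downstream of the gene and 18 inside it, Sema4f 49 and 25, and Sema4b 41, 36 and 22. The Sema4b interval of 22 is also listed for D330012F22Rik and Cib1. Single mesenchyme intervals were listed for Sema6d (33), Sema3d (31) and Sema3a (25). That of Sema3a lay 7.63 kb inside the gene (chr5:13406670-13407299) and stood at the 24.8th percentile of mesenchyme.

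Of the 10 genes for semaphorin receptors, 3 were listed in epithelium and 8 in mesenchyme, or 3 and 3 with equal numbers of intervals. With all intervals kept, their length classes would give 1.4 and 3.1, to be set beside the 3 and 8. No such count was made for equal numbers of intervals. Plxna1, a plexin that pairs with neuropilins, had 34 in epithelium and 77 in mesenchyme at one place 2.70 kb inside the gene (chr6:89309650-89310225 in epithelium). Plxnc1, the receptor of Sema7a, had 29 in epithelium and 98, 28 and 20 in mesenchyme. Its shared pair, 29 and 98, lay 19.0 kb inside the gene, with peak centres at the same position. Nrp2 had 19 in epithelium and 30 at the same place in mesenchyme, 91.7 kb inside the gene, and 28 upstream of its start in mesenchyme alone. The other 5 genes were listed in mesenchyme alone. Plxna2 had 61 and 35, Plxnb2 36, Nrp1 17, and Plxnb1 and Plxnd1 14 each. The Plxnb2 interval is also listed for LOC100043185 and 1700027J05Rik. The values of 14 stood at the 0.7th percentile of mesenchyme, among the lowest that were listed.

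**Figure D4:**
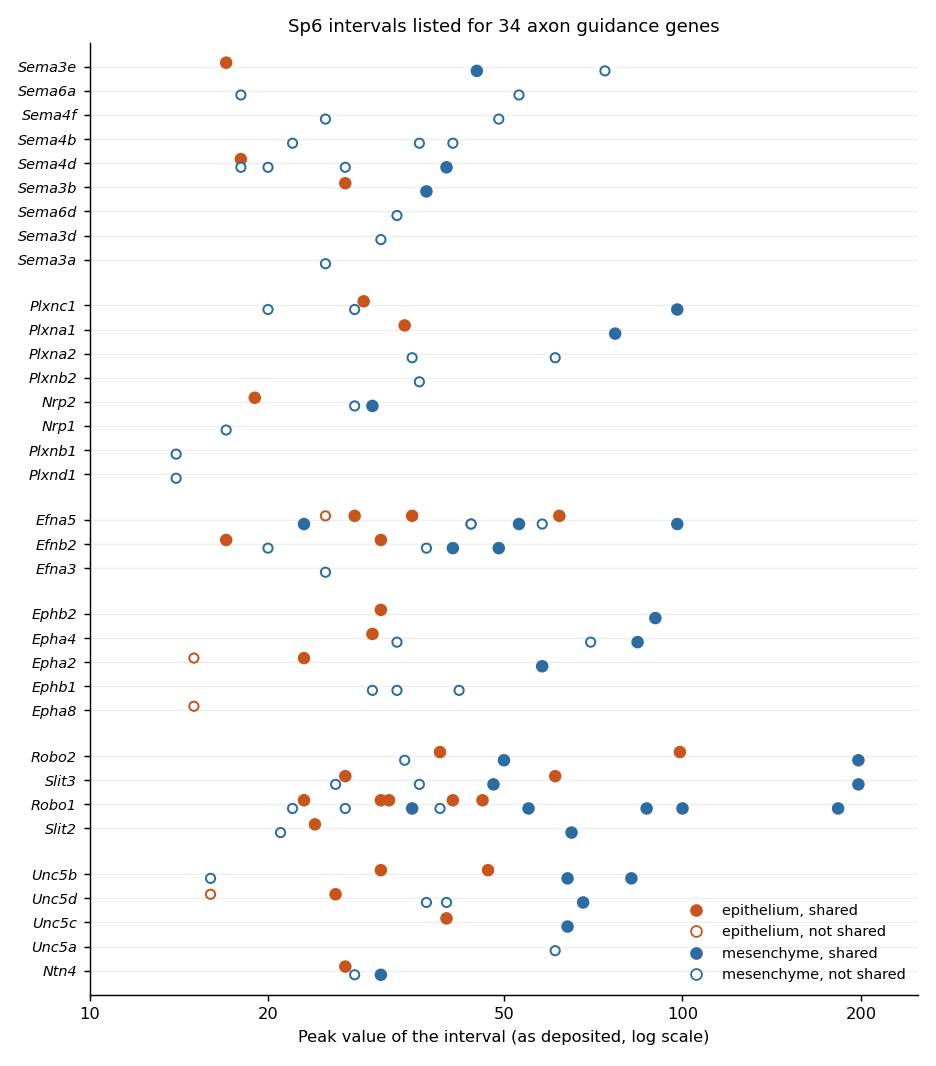
Peak value of every Sp6 interval (horizontal axis, log scale) listed for each of the 34 guidance genes, in epithelium (orange) and mesenchyme (blue). Filled points overlap an interval of the other tissue and open points do not; the highest values, 198, 198 and 183, belong to Robo2, Slit3 and Robo1 in mesenchyme.

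At most 5 kb from a gene start lay 2 of the 33 guidance intervals of epithelium (6.06%, 1.68 to 19.6%), against 20.3% of all listings, and 11 of the 76 of mesenchyme (14.5%, 8.28 to 24.1%), against 23.0%. These shares were not matched for gene length. Counted by gene, an interval at most 5 kb from the start was listed for 2 of 66 genes in epithelium (3.03%, 0.835 to 10.4%), against 2.03% of all genes, and for 10 in mesenchyme (15.2%, 8.44 to 25.7%), against 6.78%. Those of epithelium were Plxna1 and Unc5b, and both were shared with mesenchyme. The other 8 were in mesenchyme alone. Negative distances mark positions upstream of the start. Plxnb1 had a value of 14 at -0.463 kb (chr9:108997310-108997883) and Sema4d 20 at -0.715 kb (chr13:51889414-51890012). Sema4f had 49 at -1.65 kb (chr6:82890984-82891611) and 25 at -3.65 kb, with a gap of 1.41 kb between the intervals. Efnb2 had 20 at -1.79 kb (chr8:8662332-8662871), Nrp2 28 at -3.36 kb (chr1:62746255-62746726) and Plxna2 61 at -4.73 kb (chr1:196440973-196441548), the highest of these. Inside the gene, Ntn4 had 28 at 2.26 kb (chr10:93105736-93106567) and Plxnd1, the receptor of Sema3e, 14 at 3.03 kb (chr6:115941636-115942375). The Plxnb1 interval was the only guidance interval on a CpG island, that is 1 of 76 in mesenchyme (1.32%, 0.233 to 7.08%), where 8.45% of all annotated intervals lay on such an island. In epithelium 0 of 33 did (Wilson upper limit 10.4%), against 4.2% of all; 3 counts of 33 would be 9.09%. The Plxnb1 interval is also listed for Ccdc51 and EG665413, that of Efnb2 for 9430010O03Rik and that of Plxna2 for EG623172.

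Promoter sequences are shown for Plxnb1, the closest interval to a start, for Sema4f, with a pair of upstream intervals, and for Unc5b, with a start-proximal interval in both tissues. Each is the 250 bases upstream of the RefSeq start on GRCm38.p6, which may differ from the start used by the authors on mm9. Measured from the authors' starts, peak centres lay outside these bases, at -0.463 kb for Plxnb1 and at -1.65 and -3.65 kb for Sema4f. That of Unc5b lay 1.77 kb inside the gene in epithelium. The boxes thus describe promoters, and interval sequences as such were not searched. The Plxnb1 interval is 574 bp wide, so its edge may reach into the printed bases. The Plxnb1 sequence is chr9:109095186-109095435 on the plus strand, Sema4f is chr6:82939770-82940019 on the minus strand and Unc5b is chr10:60831582-60831831 on the minus strand. Capitals mark GC boxes (GGGCGG or its reverse complement CCGCCC) and CACCC boxes (CCACCC or GGGTGG), the letters searched on both strands, and matches may share bases.
Plxnb1: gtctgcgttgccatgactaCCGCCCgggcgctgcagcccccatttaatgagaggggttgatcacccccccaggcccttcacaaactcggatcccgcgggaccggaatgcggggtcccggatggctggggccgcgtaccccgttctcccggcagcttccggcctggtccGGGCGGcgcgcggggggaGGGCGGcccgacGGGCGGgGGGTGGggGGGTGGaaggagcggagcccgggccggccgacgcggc
Sema4f: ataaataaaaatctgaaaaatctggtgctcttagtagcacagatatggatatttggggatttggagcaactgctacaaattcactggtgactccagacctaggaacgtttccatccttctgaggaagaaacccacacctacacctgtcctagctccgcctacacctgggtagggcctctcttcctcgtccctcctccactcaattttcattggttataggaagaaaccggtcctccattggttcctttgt
Unc5b: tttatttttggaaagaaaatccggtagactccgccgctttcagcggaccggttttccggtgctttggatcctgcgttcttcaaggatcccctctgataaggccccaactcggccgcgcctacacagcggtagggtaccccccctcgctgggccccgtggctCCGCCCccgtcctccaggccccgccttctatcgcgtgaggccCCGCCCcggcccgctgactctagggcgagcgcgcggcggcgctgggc
Plxnb1 held 4 GC boxes and 2 CACCC boxes, Unc5b held 2 GC boxes and Sema4f held neither. Among promoters of the same length, a GC box occurred in 25 of 38 (65.8%) from the listed guidance genes, in 27 of 35 (77.1%) from the 32 unlisted ones and in 43.1% of all protein-coding promoters. The CACCC box occurred in 42.1%, 60% and 30.4%. The median G+C content was 64.6%, 64.0% and 55.6% in the same order. The listed genes with an interval within 5 kb of the start had a GC box in 72.7% and a CACCC box in 36.4% of 11 promoters. These differences were not tested. Some genes have more than 1 promoter in the table, which covered 30 of the 34 listed and 27 of the 32 unlisted guidance genes.

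Within the guidance genes 29 of 33 epithelium intervals overlapped a mesenchyme interval (87.9%, 72.7 to 95.2%), where 87.4% of all annotated epithelium intervals did. In the other direction 29 of 76 mesenchyme intervals were shared (38.2%, 28.1 to 49.4%), against 28.7% of all. The 4 epithelium intervals without a counterpart, at Efna5, Epha2, Epha8 and Unc5d, had values of 15 to 25, and the 29 shared ones had 17 to 99. In mesenchyme the 47 unshared intervals had a median of 33 and the 29 shared ones a median of 64, beside 30 and 58 over all annotated intervals. The strongest unshared mesenchyme interval was that of Sema3e, with a value of 74.

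Peak centres of the 29 shared pairs were a median of 32 bp apart, and all but a Robo1 pair, at 352 bp, were at most 100 bp apart. By deposited values 1 pair was higher in epithelium and 28 were higher in mesenchyme, beside 5.42% and 93.9% of all pairs. The log2 ratio of epithelium to mesenchyme had a median of -1.05 (interquartile range -1.40 to -0.66), beside -0.97 (-1.35 to -0.58) for all 2083 pairs. The lowest ratio was -2.16, at the Robo1 interval with 41 in epithelium and 183 in mesenchyme, and Plxnc1 (-1.76) and Slit3 (-1.70) came next. At the other end were Efna5 (0.28), Ntn4 (-0.20) and Robo2 (-0.36, the pair with 39 and 50). The 3 Eph receptor pairs lay between -1.54 and -1.33, and the 5 ephrin pairs between -1.27 and 0.28.

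**Figure D5:**
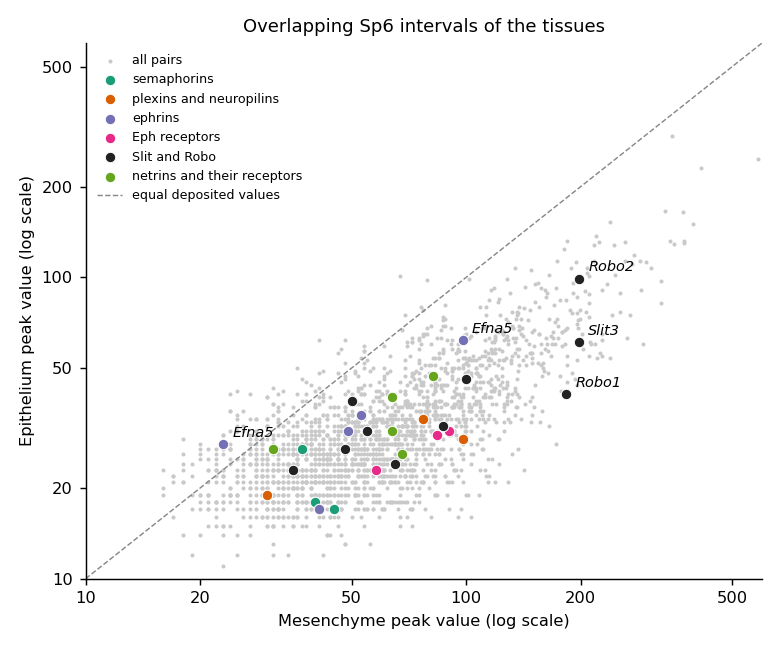
Epithelium peak value (vertical axis, log scale) against mesenchyme peak value (horizontal axis, log scale) for overlapping intervals. Grey points are all 2083 pairs and coloured points the 29 pairs in guidance genes; 1 coloured point, of Efna5, lies above the line of equal deposited values.

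Ranked within its own tissue, the Robo2 interval at 105 kb stood at the 98.3rd percentile of epithelium and the 99.2nd of mesenchyme. Sema3e differed most, with its shared interval at the 8.0th percentile of epithelium and the 69.2nd of mesenchyme, followed by an Efnb2 interval at the 8.0th and 63.4th. The top 10% of each tissue held 3 of the 33 guidance intervals of epithelium (9.09%) and 10 of the 76 of mesenchyme (13.2%). Those of epithelium belonged to Robo2, Efna5 and Slit3. Median peak values of the guidance intervals were 29 in epithelium and 38 in mesenchyme, beside 27 and 34 for all annotated intervals.

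Most guidance intervals lay inside genes. In epithelium 30 of 33 were in the gene body and 3 downstream, with 0 upstream. In mesenchyme 64 of 76 were in the gene body, 8 upstream and 4 downstream. Gene-body positions made up 90.9% and 84.2% of these listings, against 66.4% and 63.5% of all listings. The median distance from the start was 43.6 kb in epithelium and 55.0 kb in mesenchyme, against 22.1 and 20.3 kb over all listings. Neither comparison was matched for gene length, and the listed members had a median of 136 kb against 17.3 kb for all genes. Without an annotation of build mm9, exons and introns were not told apart. Another interval of the same list lay within 10 kb of 5 of the 33 in epithelium (15.2%) and 17 of the 76 in mesenchyme (22.4%), against 11.7% and 26.7% of all annotated intervals. No guidance interval overlapped one from an input library, beside 0.42% of all annotated intervals in epithelium and 0.139% in mesenchyme. The Wilson upper limits for these counts of 0 are 10.4% in epithelium and 4.81% in mesenchyme, and 3 counts would be 9.09% and 3.95%. Input lists were short, with 17 intervals for epithelium and 24 for mesenchyme, which leaves background signal unmeasured.

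The families also held 32 genes with no interval in the tables used here. The semaphorins Sema3c, Sema3f, Sema3g, Sema4a, Sema4c, Sema4g, Sema5b, Sema6b, Sema6c and Sema7a were among them, as were the plexins Plxna3 and Plxnb3. So were the ephrins Efna1, Efna2, Efna4, Efnb1 and Efnb3, and the Eph receptors Epha1, Epha3, Epha5, Epha6, Epha7, Epha10, Ephb3, Ephb4 and Ephb6. Several of these are long, such as Epha6 (969 kb), Epha5 (363 kb) and Epha3 (321 kb). Listed distances reach no farther than 10 kb upstream of a start, so an interval farther upstream is not listed for these genes.

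Of 62 genes for effectors and co-factors of guidance receptors, 19 had an interval in epithelium (30.6%, 20.6 to 43.0%) and 33 in mesenchyme (53.2%, 41.0 to 65.1%). The list also holds further netrin genes, among them Ntn5 and Ntng1. All 19 of epithelium were also listed in mesenchyme, as were 92.4% of all epithelium genes. With a median length of 111 kb, the shares of their length classes would give 12.9 and 25.5. Among their strongest intervals in epithelium were those of Mical3 (58), Myo10 (55), Mical2 (45) and Dock1 (42). In mesenchyme Dock1 (134), Mical2 (114), Trio (112) and Mical3 (95) were among the strongest. MICAL proteins act on actin downstream of plexins, and Trio and Dock1 are exchange factors for Rac. Of 17 genes for neurotrophins, GDNF-family ligands and their receptors, a list that does not include Gfra1, 0 were listed in epithelium (0.0%, 0.0 to 18.4%) and 2 in mesenchyme (11.8%, 3.29 to 34.3%). These were the neurotrophin receptors Ntrk2 (43) and Ntrk3 (29), and the length classes would give 2.0 and 4.5.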

How the data were processed

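Sp6 ChIP-seq and input libraries of dental epithelium and mesenchyme were used as deposited. Per the submitters' processing notes, intervals were called with MACS 1.3.7.1 on mm9; the sources used here do not give the aligner, thresholds, scaling or use of inputs. Per the file headers, the authors deposited for each Sp6 library the signal of an interval as peak and average values, with positions in bp, distances to gene starts measured from the peak centre, CpG islands and gene names. Interval starts are 0-based in the files and printed from 1.

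Family members were found by name, and the list was chosen with earlier results of these data known, as were the 2 other gene lists. Unc50 and Unc5cl share a prefix but are not netrin receptors, and were left out. Gene names were matched to RefSeq symbols or synonyms on the same chromosome (GRCm38.p6, for names, lengths and promoters): 86.4% of names in epithelium and 86.0% in mesenchyme matched a protein-coding gene. An interval counted as shared if any interval of the other tissue covered at least 1 bp of it. Every family member is named; full values follow a rule of the highest 5 per family, all within 5 kb of a start, and all epithelium intervals without a counterpart. Values of the other listed members were added after they had been seen. The overlap code was tested on simulated data. Python 3.11.15 and pandas 2.3.3 were used. Alternatives were other overlaps, signal cut-offs, equal interval numbers, positions and co-listed genes. A gene among the highest values of the effector list is not reported here.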

Additional observations from a re-analysis of the deposited data

How the results depend on the processing

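Of 53 alternative values, 38 were within 1.5 times the reported count or within the 95% interval of the reported share or median ratio, and 15 were not. The counts in each tissue depended on the number of intervals kept. Among the top 50% of annotated intervals by peak value, 13 members were listed in epithelium, 24 in mesenchyme and 12 in both, with 21 and 47 intervals. The mesenchyme list was also reduced to as many annotated intervals as epithelium. This left 20 members with 33 intervals in epithelium and 19 with 32 in mesenchyme. Of these member intervals, 66.7% in epithelium and 68.8% in mesenchyme were shared. Such a cut lowers the mesenchyme count of genes in general, and the share of all genes at this list size was not computed. Within 5 kb of a start, 2 members were listed in epithelium, 10 in mesenchyme and 2 in both, with 2 and 11 intervals, of which 100% and 18.2% were shared. Leaving out intervals also listed for another gene gave 17 and 29 members. A minimum overlap of 50% of the shorter interval, and leaving out intervals on inputs, changed none of the values computed for them. Over shared pairs, the log2 ratio (epithelium to mesenchyme) had medians between -1.15 and -0.67 in all settings run, the value nearest 0 from average instead of peak signal. No paired analysis was possible because each group has 1 library. Depth is unknown, so a gene without a listed interval may lie below the calling limit, and mesenchyme, with more intervals, may list weaker sites.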

Other observations

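Intervals without a listed gene were also counted near guidance genes. For 23 members the start could be placed on mm9 from the tables' distances. Within 100 kb of these starts lay 6 such intervals in epithelium, around 5 genes (21.7%, 9.66 to 41.9%), and 12 in mesenchyme, around 6 genes (26.1%, 12.5 to 46.5%). Over all 2500 gene names with a start placed in the same way, 11.1% had such an interval in epithelium and 24.6% in mesenchyme, within both ranges. Sema3e had 1 in epithelium and 4 in mesenchyme, Sema4f 1 and 3, and Efnb2 2 and 2. The pair of Efnb2 intervals in epithelium overlapped no mesenchyme interval, while those of Sema3e, Sema4f, Slit3 and Unc5b in epithelium each did. These intervals carry no peak value in the files used here, and other genes may lie nearer to them.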
